A study of Mus musculus with 12 samples.

Results

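Dclk1, Sh2d6 and Avil are genes used as markers of tuft cells, and their transcripts were followed across 6 populations of cells isolated from the mouse small intestine. The genes were selected on their levels in these arrays, which stepped up with the Mex3a gate, so that the steps between the Mex3a gates are given as a description with no test. Every probe set (a group of short DNA probes that reports 1 transcript) annotated to them was used. There are 8 probe sets for Dclk1, 1 for Sh2d6 and 1 for Avil, 10 of the 28898 probe sets with a single gene, or 3 of 17097 genes. Untreated primary cells were isolated by Mex3a as negative, low or high and by Lgr5 as high or low, and these sorted groups are called gates. The product of Mex3a binds RNA, and the receptor Lgr5 is the marker of crypt base stem cells. The 6 populations are therefore Mex3a-negative, Mex3a-low and Mex3a-high cells of the Lgr5-high gate and Mex3a-negative, Mex3a-low and Mex3a-high cells of the Lgr5-low gate. Each came from 2 biological replicates, MR793 and MR820, with RNA of 2000 cells amplified over 22 cycles and hybridised to 1 Affymetrix array per population and replicate. The reporter or antibody behind the gates, the mouse strain and the age are not stated in the labels. Nor do they say whether MR793 and MR820 are single mice or pools, so p values measure the spread between these samples only.

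Tuft cells are rare chemosensory cells of the gut epithelium that carry a tuft of stiff microvilli and sense luminal contents through taste-type signalling. They are the epithelial source of interleukin 25 in responses to worms and protists. Dclk1, a microtubule-binding kinase with doublecortin domains, is widely used to stain them in the mouse intestine. Avil encodes advillin, an actin-binding protein of the gelsolin and villin family, and Sh2d6 encodes a protein with an SH2 domain, a module that binds phosphotyrosine. Differentiation of tuft cells depends on the POU-domain factor Pou2f3, which binds octamer-type motifs.

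The promoter windows that RefSeq gives for the 3 genes on the mouse build GRCm38.p6 are shown for the letters at their transcript starts, each from 250 bases before to 50 bases after a transcript start. Dclk1 lies on chromosome 3 (chr3:55242303-55539068), Sh2d6 on chromosome 6 (chr6:72513641-72534206) and Avil on chromosome 10 (chr10:127000065-127020994). Dclk1 has 2 windows in the table and the other genes 1 each. Capitals mark matches on either strand to GAGGAA, a core of ETS-family sites, or to ATGCAAA, the first 7 bases of the octamer ATGCAAAT.
Avil, + strand, chr10:127000459-127000758: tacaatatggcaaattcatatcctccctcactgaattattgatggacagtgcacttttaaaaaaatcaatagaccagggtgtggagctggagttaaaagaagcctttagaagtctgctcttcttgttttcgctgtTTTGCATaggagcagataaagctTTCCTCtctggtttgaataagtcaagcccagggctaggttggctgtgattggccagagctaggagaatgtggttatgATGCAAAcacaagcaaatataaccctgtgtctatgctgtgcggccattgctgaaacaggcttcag
Dclk1, + strand, chr3:55242114-55242413: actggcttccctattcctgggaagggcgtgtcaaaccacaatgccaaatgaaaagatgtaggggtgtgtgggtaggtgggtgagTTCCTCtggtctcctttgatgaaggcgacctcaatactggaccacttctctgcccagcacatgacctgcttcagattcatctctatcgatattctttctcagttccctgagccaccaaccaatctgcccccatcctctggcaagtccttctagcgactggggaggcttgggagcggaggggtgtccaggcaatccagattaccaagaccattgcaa
Dclk1, + strand, chr3:55461478-55461777: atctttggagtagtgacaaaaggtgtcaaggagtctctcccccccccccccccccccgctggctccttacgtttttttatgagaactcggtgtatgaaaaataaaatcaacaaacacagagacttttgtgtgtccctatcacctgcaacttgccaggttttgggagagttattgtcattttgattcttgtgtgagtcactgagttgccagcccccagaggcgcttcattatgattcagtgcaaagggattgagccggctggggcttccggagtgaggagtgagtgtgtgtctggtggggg
Sh2d6, - strand, chr6:72519987-72520286: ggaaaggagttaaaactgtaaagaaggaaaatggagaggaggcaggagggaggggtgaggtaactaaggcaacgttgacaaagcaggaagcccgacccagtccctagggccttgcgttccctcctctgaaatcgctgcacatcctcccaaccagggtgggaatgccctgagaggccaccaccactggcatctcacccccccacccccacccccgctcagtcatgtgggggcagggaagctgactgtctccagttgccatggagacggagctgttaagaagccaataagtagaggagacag
The full octamer ATGCAAAT was found in none of the 4 windows, against 1.74% of all 32851 windows in the table. The 7 bases ATGCAAA, a search added after the windows had been seen, matched the Avil window at 2 places, at position -115 from the start on the minus strand and at -15 on the plus strand, against at least 1 match in 4.63% of all windows. GAGGAA matched the minus strand of the Avil window at position -92 and of the upstream Dclk1 window at -166, and it is found in 28.3% of all windows. The letters AAATCAC (a GFI-type core, 3.20% of windows) and TATAAA (13.6%) were found in none of the 4. No motif searched lies wholly within another except that ATGCAAA is part of ATGCAAAT. These matches describe letters in the windows and are not binding sites.

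The gates and arrays were checked before the 3 genes. The brighter of 2 Lgr5 probe sets lay at 8.999 to 10.21 (log2 RMA) on the Lgr5-high arrays and at 6.37 to 8.05 on the Lgr5-low arrays, which did not overlap. The brighter of 2 Mex3a probe sets, named here after its values were seen, did not separate the Mex3a gates. It lay at 5.71 and 5.91, 5.79 and 5.63, and 6.35 and 5.84 in Mex3a-negative, -low and -high cells of the Lgr5-high gate (MR793 and MR820 in each), and between 5.44 and 5.71 on all Lgr5-low arrays. The array of Mex3a-high Lgr5-high cells from MR793 lay apart from the rest and is called the outlying array, with a correlation of 0.896 to 0.916 to the other arrays, against 0.971 to 0.996 among those 11. Some tests of the 3 genes and some counts of the tuft lists are also given without it, which leaves 1 array in its population. The count of tuft list genes that rose with Mex3a in the Lgr5-high gate is not among them. The arrays were run on 3 strips, and the Lgr5 gates share a strip only for the Mex3a-high cells of MR820, while the 3 Mex3a gates of MR793 share 1 strip within each Lgr5 gate.

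In both Lgr5 gates the 3 genes were lowest in Mex3a-negative cells and highest in Mex3a-high cells, and in Mex3a-low and Mex3a-high cells they were dimmer in the Lgr5-high than in the Lgr5-low gate. Levels are RMA values on the log2 scale, where 1 unit is a doubling, and the brightest probe set on average over the arrays, called the lead, stands for a gene. Levels of different genes are not compared, because the brightness of probe sets differs.

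Among Lgr5-high cells Dclk1 lay at 5.10 (MR793) and 5.04 (MR820) in Mex3a-negative cells, at 5.60 and 5.55 in Mex3a-low cells and at 8.12 and 8.00 in Mex3a-high cells. Among Lgr5-low cells it lay at 5.27 and 5.63, 9.59 and 8.48, and 11.64 and 11.81 in the same order of gates. The arrays of neighbouring Mex3a gates did not overlap in either Lgr5 gate. The Mex3a-high minus Mex3a-negative difference was 3.02 in MR793 and 2.95 in MR820 for Lgr5-high cells, and 6.37 and 6.18 for Lgr5-low cells, or 7.92-fold among Lgr5-high and 77.4-fold among Lgr5-low cells on average. On each array Dclk1 can be ranked among all probe sets, with 100 the brightest. Its percentile rank was 31.0 to 45.7 in Mex3a-negative cells and reached 98.9 and 99.1 in Mex3a-high Lgr5-low cells.

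Sh2d6 followed the same order. Among Lgr5-high cells it lay at 5.95 and 5.77 in Mex3a-negative, 6.74 and 6.63 in Mex3a-low and 9.62 and 8.95 in Mex3a-high cells, for MR793 and MR820. Among Lgr5-low cells it lay at 6.31 and 6.57, 10.80 and 9.51, and 12.40 and 12.18. Again no array of a gate reached the next gate, and the replicates were farthest apart in Mex3a-low Lgr5-low cells. The Mex3a-high minus Mex3a-negative difference was 3.68 and 3.19 in Lgr5-high cells and 6.09 and 5.60 in Lgr5-low cells, which are 10.8-fold and 57.6-fold on average.

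Avil had the smallest differences of the 3 lead probe sets between Mex3a-high and Mex3a-negative cells. Its Lgr5-high levels were 6.81 and 6.85 in Mex3a-negative, 7.51 and 7.14 in Mex3a-low and 9.01 and 8.74 in Mex3a-high cells. Its Lgr5-low levels were 7.06 and 6.83, 9.99 and 9.11, and 11.78 and 11.87. The gates were separate here too, with the Mex3a-low array of MR820 in the Lgr5-high gate 0.29 above its own Mex3a-negative array. The Mex3a-high minus Mex3a-negative difference was 2.21 and 1.90 in Lgr5-high and 4.72 and 5.04 in Lgr5-low cells, or 4.14-fold and 29.5-fold on average. These are bulk samples, so fewer tuft cells and less transcript per tuft cell cannot be told apart.

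**Figure D1:**
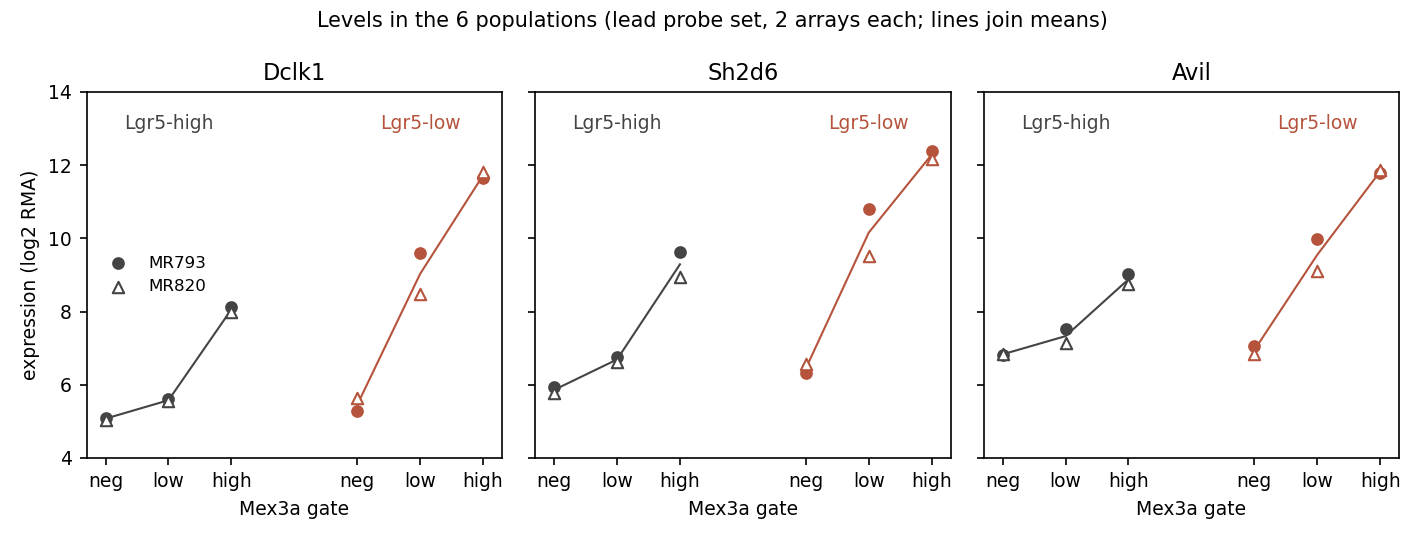
Levels (log2 RMA, y axis) of the lead probe set of Dclk1, Sh2d6 and Avil on each array, by Mex3a gate (x axis) in the Lgr5-high (grey) and Lgr5-low (red) gate. Filled circles are MR793, open triangles MR820 and lines join the means. Over the 3 genes the Mex3a-low arrays sit at 7.51 or less in the Lgr5-high gate and at 8.48 or more in the Lgr5-low gate.

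For the lead probe sets, the share of the change that lay below Mex3a-low was larger in the Lgr5-low gate. In Lgr5-high cells the change from Mex3a-negative to Mex3a-low was 16.8% of the whole change to Mex3a-high on the log2 scale for Dclk1, 24.2% for Sh2d6 and 24.3% for Avil, from the means. In Lgr5-low cells it was 57.1%, 63.5% and 53.4%. The replicates differed within the Lgr5-low gate, where MR793 gave 67.7% for Dclk1, 73.7% for Sh2d6 and 62.1% for Avil and MR820 gave 46.1%, 52.5% and 45.1%. For Lgr5-high cells the shares lay between 15.5% and 31.8% in both replicates. The other 7 Dclk1 probe sets had shares of -2.82% to 27.7% (median 19.8%) in Lgr5-high cells and of 19.4% to 53.4% (median 28.6%) in Lgr5-low cells, and 1424270_PM_at ran the other way, with 27.7% in Lgr5-high and 19.4% in Lgr5-low cells. As background, 201 genes (1.18%) stepped up through the 3 Mex3a gates without overlapping arrays in the Lgr5-high gate and 703 (4.11%) in the Lgr5-low gate. The 3 genes were chosen for that order, so their place among them is no finding. Of all probe sets, 0 (0.0%) differed from Mex3a-negative in Mex3a-high cells of the Lgr5-high gate at a limma adjusted p under 0.05, with 1132 at an unadjusted p under 0.05. Among Lgr5-low cells 440 (1.52%) did, 438 of them higher (1.52%). Nothing is read from these counts for the 3 genes.

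The 8 probe sets of Dclk1 differed in the size of their steps. They are not independent, since 3 of them share 1 source sequence and 2 share another. On the MR820 arrays of both Lgr5 gates and on the MR793 arrays of the Lgr5-low gate, all 8 stepped up from Mex3a-negative over Mex3a-low to Mex3a-high. In MR793 Lgr5-high cells 6 of 8 did, and the other 2 had a lower level in Mex3a-low cells than in Mex3a-negative ones. The Mex3a-high minus Mex3a-negative difference among Lgr5-high cells was 2.99 for the lead probe set, 1451917_PM_a_at, and 0.19 to 1.38 for the other 7 (median 0.42). Among Lgr5-low cells it was 6.27 for the lead probe set and 2.50 to 6.00 for the other 7 (median 4.31).

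The Lgr5-high difference of Dclk1 was thus largest in 1 of its 8 probe sets. The other 7 had means of 4.31 to 5.88 in Mex3a-high Lgr5-high cells, where the lead probe set had 8.06. In Mex3a-low Lgr5-low cells, where the lead probe set had 9.03, they had 4.83 to 7.60. The second highest on average, 1423125_PM_at, lay at 5.41 and 5.57 in Mex3a-negative, 5.53 and 5.66 in Mex3a-low and 5.73 and 6.03 in Mex3a-high Lgr5-high cells. Among Lgr5-low cells the same probe set lay at 5.40 and 5.41, 7.21 and 6.49, and 9.48 and 10.04. The replicates were farthest apart for 1436659_PM_at in Mex3a-high Lgr5-high cells, at 4.99 and 6.60. The RMA level of a probe set without signal is above 0, which compresses differences between dim levels, and its part in the gap between probe sets was not tested.

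**Figure D2:**
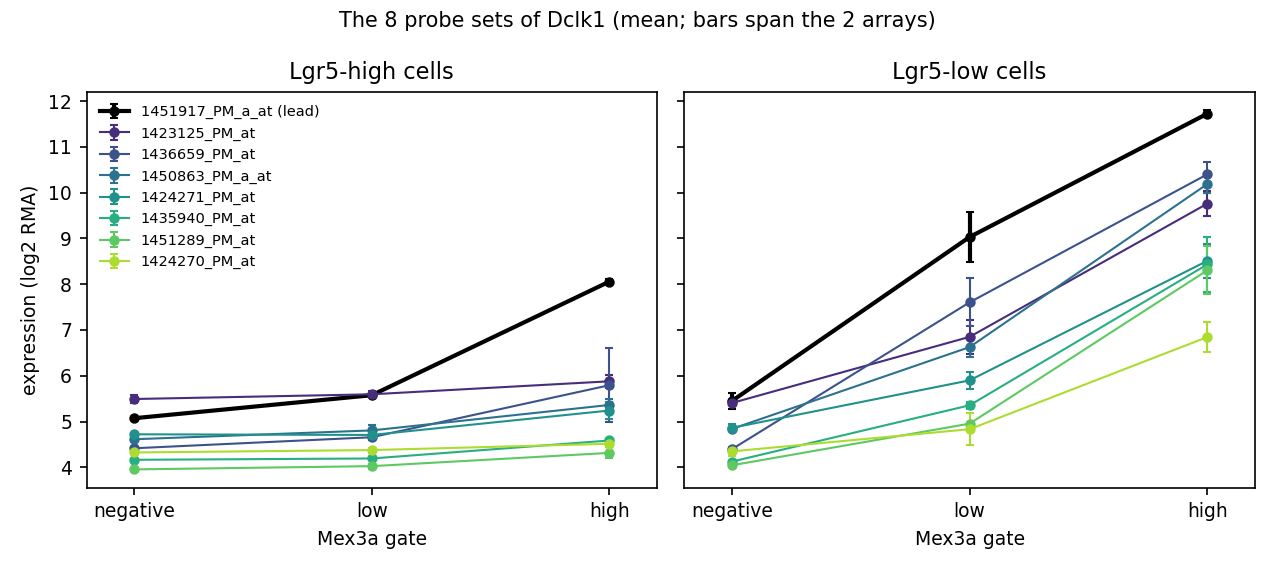
Mean level (log2 RMA, y axis) of the 8 Dclk1 probe sets by Mex3a gate (x axis) in Lgr5-high cells (left) and Lgr5-low cells (right), with bars from the lower to the higher of the 2 arrays. The lead probe set (black) stands at 8.06 in Mex3a-high Lgr5-high cells, above the 4.31 to 5.88 of the other 7, and all 8 lie at 6.84 to 11.7 in Mex3a-high Lgr5-low cells.

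The Lgr5 gates were compared at each Mex3a level with limma, a contrast the selection of the genes had not used. The levels compared are those whose steps selected the genes, on the same arrays, so these p values are not free of that selection. Among Mex3a-high cells all 3 genes were lower in Lgr5-high than in Lgr5-low cells. Dclk1 differed by -3.67 ± 0.32 (log2 difference ± SE, limma adjusted p = 0.000459), or 12.7-fold, with -3.52 in MR793 and -3.81 in MR820. Sh2d6 differed by -3.00 ± 0.38 (adjusted p = 0.00404), with -2.77 and -3.22 in the replicates. Avil differed by -2.95 ± 0.29 (adjusted p = 0.000816), with -2.77 and -3.13. The MR820 values are the ones measured within 1 strip. All 8 Dclk1 probe sets passed, with differences of -4.82 to -2.33, so that 10 of 10 probe sets of the 3 genes were called lower, against 366 of 28898 probe sets called in either direction (1.27%) and 354 called lower (1.22%). Without the outlying array the differences were -3.73 for Dclk1, -3.33 for Sh2d6 and -3.08 for Avil, and all 3 lead probe sets passed. Without the Mex3a-high Lgr5-low array of MR793 the call of Sh2d6 was lost (-2.89, adjusted p = 0.0574), and the calls of Dclk1 and Avil held under all 19 alternatives.

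Among Mex3a-low cells Dclk1 and Sh2d6 were again called lower in the Lgr5-high gate. Dclk1 differed by -3.46 ± 0.32 (limma adjusted p = 0.0171) and Sh2d6 by -3.47 ± 0.38 (adjusted p = 0.0418). They were among 4 probe sets called in all (0.0138%), beside Fut2, a fucosyltransferase, at -2.74, and Esr1, the estrogen receptor, at 1.84. Avil differed by -2.22 ± 0.29 and did not pass (adjusted p = 0.0702). The lead probe sets were lower in Lgr5-high cells of both replicates, at -3.99 and -2.93 for Dclk1, -4.05 and -2.88 for Sh2d6 and -2.48 and -1.96 for Avil. Of the other 7 Dclk1 probe sets, with -2.95 to -0.46, none passed. With the strip as a block the Dclk1 and Sh2d6 calls were lost, and they were also lost when single arrays were left out. For Dclk1 this held for 7 of the 12 arrays (both of Mex3a-low Lgr5-high, Mex3a-negative Lgr5-high and Mex3a-high Lgr5-low cells, and that of MR793 for Mex3a-low Lgr5-low cells), and for Sh2d6 for these and both Mex3a-negative Lgr5-low arrays. Avil passed in 3 of the 12 such fits, those lacking 1 of the Mex3a-high Lgr5-high arrays or the MR820 array of Mex3a-low Lgr5-low cells.

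Among Mex3a-negative cells the Lgr5 gates gave small differences of -0.38 for Dclk1 (95% interval -1.09 to 0.34), -0.58 for Sh2d6 (-1.44 to 0.28) and -0.12 for Avil (-0.76 to 0.53). All had an adjusted p of 1.0. No probe set passed in this comparison (0.0%), and 661 had an unadjusted p under 0.05 by limma.

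**Figure D3:**
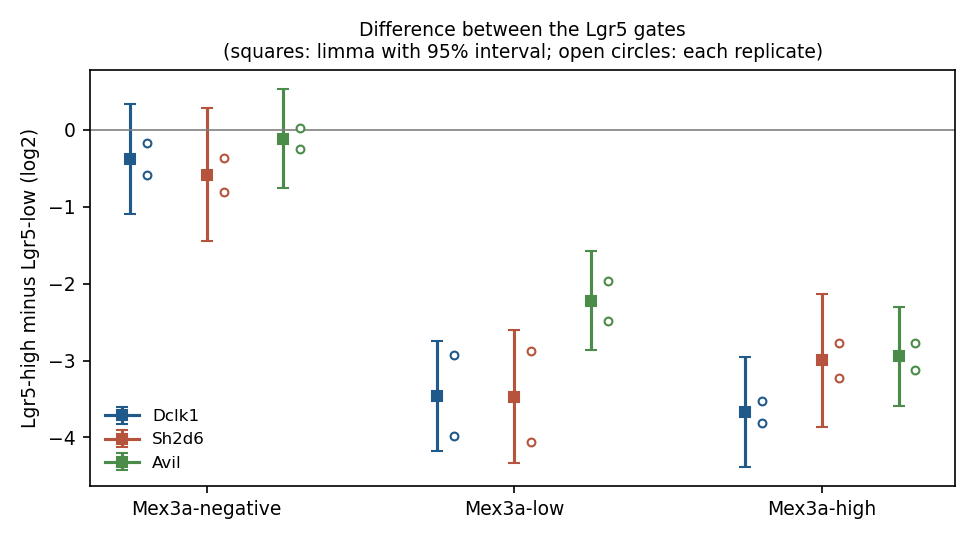
Lgr5-high minus Lgr5-low difference (log2, y axis) of Dclk1, Sh2d6 and Avil (lead probe sets) at each Mex3a level (x axis). Squares with bars are the limma estimates with 95% intervals and open circles the 2 replicates. The intervals hold 0 in Mex3a-negative cells and lie between -4.38 and -1.58 in Mex3a-low and Mex3a-high cells.

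Whether the rise with Mex3a differed between the Lgr5 gates was tested as a difference of differences, Lgr5-high minus Lgr5-low. The changes it subtracts are those the genes were selected on, so its p values are not free of that selection. Between Mex3a-negative and Mex3a-high, the change of Dclk1 was smaller in Lgr5-high cells, by -3.29 ± 0.45 (limma adjusted p = 0.0143), and that of Avil by -2.83 ± 0.40 (adjusted p = 0.0173). The replicates gave -3.35 and -3.23 for Dclk1 and -2.52 and -3.14 for Avil. For Sh2d6 the value was -2.42 ± 0.54 and did not pass (adjusted p = 0.192), although both replicates gave -2.41 and -2.42. Its 95% interval ran from -3.63 to -1.20. All 8 Dclk1 probe sets passed (-4.63 to -2.31), against 124 probe sets in all (0.429%), each of them lower. Both calls were lost in 6 of the 12 fits that left out 1 array each, namely an array of the Mex3a-negative Lgr5-high, Mex3a-high Lgr5-low or Mex3a-negative Lgr5-low population, with adjusted p up to 0.101 for Dclk1 and 0.124 for Avil. Without the outlying array the values were -3.35 for Dclk1, -2.97 for Avil and -2.75 for Sh2d6, and the calls were as with all arrays (adjusted p = 0.0512 for Sh2d6). A strip block made Sh2d6 pass (-2.79, adjusted p = 0.0262). It also passed in 3 of the 12 fits lacking an array, either one of the Mex3a-low Lgr5-low cells or that of MR820 for Mex3a-high Lgr5-high cells (-2.08, adjusted p = 0.0109). In the fit without that MR820 array, where the outlying array stands alone, 43.6% of all probe sets were called.

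The change was then split at Mex3a-low. From Mex3a-negative to Mex3a-low the differences were -3.08 ± 0.45 for Dclk1, -2.88 ± 0.54 for Sh2d6 and -2.11 ± 0.40 for Avil. None passed over all probe sets (limma adjusted p = 0.954 for Dclk1 and 1.0 for the others), and none of the 28898 did (0.0%), with 212 at an unadjusted p under 0.05. Lacking the MR820 array of Mex3a-low Lgr5-low cells, Dclk1 was called (-3.63, adjusted p = 0.036). From Mex3a-low to Mex3a-high they were -0.21 (95% interval -1.22 to 0.80) for Dclk1, 0.47 (-0.75 to 1.68) for Sh2d6 and -0.72 (-1.63 to 0.18) for Avil, with adjusted p of 0.916, 0.891 and 0.891. The other 7 Dclk1 probe sets had -3.06 to -1.66 in that upper step, and 2 of them passed, 1451289_PM_at at -3.06 (adjusted p = 0.0316) and 1450863_PM_a_at at -3.00 (adjusted p = 0.0201), among 24 probe sets called (0.0831%). With the replicate as a block 12 probe sets were called, the same 2 of Dclk1 among them. Without the outlying array 80 were called (0.277%), 3 of them of Dclk1.

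Other genes of tuft cells were counted in lists ordered by role. Each gene was read at its lead probe set only, although some have more, such as Trpm5 with 3 and Gng13 with 2. These lists, and those of relatives and cell type markers below, were chosen with earlier results of these data known. Their counts are therefore a description and no independent test. Of 49 genes in 6 lists 44 were measured, and the others were not analysed here. In the Lgr5-high gate 0 of 44 passed between Mex3a-high and Mex3a-negative cells (limma), and 1, Trpm5, with the replicate as a block, where 3 of all 17097 genes rose (0.0175%). Without a block, 31 of the 44 had a positive difference, as did 10110 of all 17097 genes. The median was 0.28, against 0.07 over all genes. Among Lgr5-low cells 23 of 44 rose and 0 fell, where 286 of all genes rose (1.67%), with a median difference of 1.45, against -0.01 over all genes. Among Mex3a-high cells 20 of 44 were lower in Lgr5-high than in Lgr5-low cells and 0 higher (median -1.22, against 0.08), where 219 of all genes were lower (1.28%). The change with Mex3a was smaller in Lgr5-high cells for 9 of 44 (median -1.44, against 0.06) and for 69 of all genes (0.404%). It was so for 17 of 44 and 139 of all genes with a strip block (0.813%), and for 13 of 44 and 82 of all genes with a replicate block (0.48%). Leaving out the outlying array raised the counts over all genes as well. Then 29 of 44 and 685 of all genes (4.01%) rose in the Lgr5-low gate, 27 of 44 and 342 of all genes (2.0%) were lower between the Lgr5 gates of Mex3a-high cells, and for 21 of 44 and 154 of all genes (0.901%) the change was smaller in Lgr5-high cells.

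In the taste-type signalling list, among Lgr5-high cells, Trpm5, the cation channel at the end of the taste cascade, lay at 8.30 and 7.55 in Mex3a-high and 5.87 and 5.31 in Mex3a-negative cells, which did not overlap. Its difference of 2.33 did not pass without the replicate block (adjusted p = 0.524), nor did that of the phospholipase Plcb2 upstream of it, 0.60 (adjusted p = 0.526). Among Lgr5-low cells 2 of 9 measured genes rose. Trpm5 differed by 5.18 ± 0.38 (adjusted p = 0.000103), and Rgs13, a regulator of G protein signalling, by 3.91 ± 0.28 (adjusted p = 9.32e-05). Plcb2 had 1.39 ± 0.42 (adjusted p = 0.26), and the G protein subunits Gng13 and Gnb3 had -0.02 and -0.09. The change of Rgs13 with Mex3a was smaller in Lgr5-high cells, by -3.29 ± 0.40 (adjusted p = 0.00846).

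Of the leukotriene and prostaglandin list none of 5 measured genes passed in the Lgr5-high gate and 4 rose in the Lgr5-low gate. These were Alox5ap, which presents arachidonate to 5-lipoxygenase (5.52), Alox5, the lipoxygenase itself (3.38), Ltc4s, the leukotriene C4 synthase (2.84), and Hpgds, a prostaglandin D synthase (2.80), with adjusted p between 4.4e-05 and 0.00104. The same 4 were lower in Lgr5-high than in Lgr5-low Mex3a-high cells, at -4.04, -2.32, -2.23 and -1.86. For Lgr5-high cells their differences between Mex3a-high and Mex3a-negative cells were 1.82, 1.05, 0.67 and 0.83. The difference between the Lgr5 gates of the change with Mex3a passed for Alox5ap (-3.70 ± 0.47, adjusted p = 0.0104).

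Of 6 transcription factors none passed in the Lgr5-high gate, where Pou2f3, the factor that tuft cells depend on, lay at 6.82 and 6.65 in Mex3a-high and 5.68 and 5.14 in Mex3a-negative cells (difference 1.33, adjusted p = 0.524). In the Lgr5-low gate 4 rose, Pou2f3 (4.08), Gfi1b, a zinc-finger repressor (2.22), Spib, of the ETS family (5.32), and Hmx2, a homeobox factor (1.93). Hmx3 had 1.20 there (adjusted p = 0.0957). For Spib the change was smaller in Lgr5-high cells by -4.01 ± 0.68 (adjusted p = 0.0444).

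Of 7 measured genes of phosphotyrosine signalling, in which SH2 domains take part, none passed in the Lgr5-high gate and 6 rose in the Lgr5-low gate. Bmx, a Tec-family kinase, had 0.14 among Lgr5-high cells and 3.05 among Lgr5-low cells, Matk, a kinase that acts on Src-family kinases, 0.44 and 3.42, and Ptpn6, the phosphatase SHP-1, 0.23 and 3.51. The difference between the gates passed for these 3 and for Fyb, an adaptor (-2.91, -2.98, -3.27 and -3.74).

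Of 9 measured cytokine, receptor and surface genes 6 rose in the Lgr5-low gate, among them Il25 (1.51), its receptor chain Il17rb (3.31), Siglecf, a sialic acid-binding lectin (5.72), and Cd24a, a surface glycoprotein (1.42, adjusted p = 0.0469). For Il17rb and Siglecf the rise was smaller in Lgr5-high cells, by -2.67 and -4.92 (adjusted p = 0.0101 and 0.0342). Of 8 actin and intermediate filament genes of the tuft or microvillus only Espn, the actin bundler espin, rose (2.60). Vil1, or villin, had 0.39, Ezr -0.05, Krt18 1.39 (adjusted p = 0.0921) and Krt8 0.12.

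Relatives of the 3 genes were counted likewise, where 1.67% of all genes rose between Mex3a-high and Mex3a-negative Lgr5-low cells, so that so few genes cannot be told from that share. Of 5 measured genes of the doublecortin and related kinase family none passed in any of the 8 comparisons. Dclk2 and Dclk3, the closest relatives of Dclk1, had 0.06 and 0.08 between Mex3a-high and Mex3a-negative Lgr5-low cells, Dcdc2a -0.12 and Camk1 0.08. Dcx was not analysed here. Of 7 gelsolin and villin family genes none passed either, with Vil1 at 0.39, Vill at 0.32, Gsn at 0.12, Scin at -0.38 and Svil at 0.63. Of 10 measured SH2D and SLP-type adaptor genes 1 rose, Sh2d5, by 0.98 ± 0.16 (adjusted p = 0.0122). Sh2d1a, Sh2d1b1, Sh2d2a and Sh2d3c had 0.02, 0.10, 0.12 and 0.16.

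**Figure D4:**
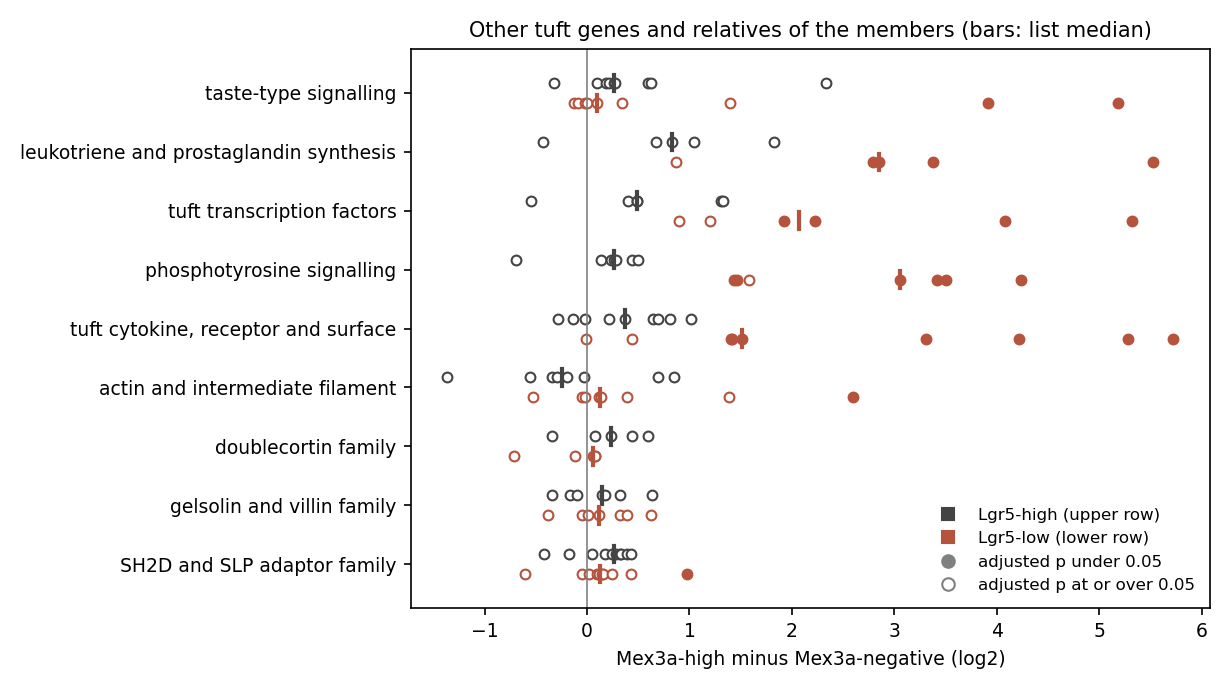
Mex3a-high minus Mex3a-negative difference (log2, x axis) of the measured genes of 6 tuft cell lists and 3 families related to Dclk1, Avil and Sh2d6 (y axis), in Lgr5-high cells (grey, upper) and Lgr5-low cells (red, lower). Filled points have an adjusted p under 0.05 and bars mark the list median. No gene of these lists is filled in the Lgr5-high gate, and in the Lgr5-low gate the filled ones lie at 0.98 to 5.72.

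Markers of other cell types moved over the same populations. The mean level of 11 measured tuft markers other than the 3 genes was 5.53, 5.71 and 6.48 over the Mex3a gates (negative, low, high) of Lgr5-high cells and 5.54, 6.73 and 8.74 over those of Lgr5-low cells. The mean of 12 enteroendocrine markers was 6.17, 6.09 and 7.13 for Lgr5-high cells and 6.18, 8.21 and 10.1 for Lgr5-low cells, so that these markers of the hormone cells differed by -3.02 between the Lgr5 gates of Mex3a-high cells, and the tuft markers by -2.27. On the MR820 array alone, Mex3a-high Lgr5-high cells had means of 6.26 for the tuft, 6.76 for the enteroendocrine and 10.5 for the Paneth cell markers. The mean of 5 Paneth cell markers was 9.11, 10.4 and 10.8 for Lgr5-high cells and 7.42, 9.65 and 10.7 for Lgr5-low cells, a difference of 0.07 between the Lgr5 gates of Mex3a-high cells. Means of goblet cell (7 genes), enterocyte (6) and stem cell (8) markers changed by -0.28, -0.92 and -0.14 from Mex3a-negative to Mex3a-high for Lgr5-high cells and by -0.20, 0.44 and 0.23 for Lgr5-low cells. Leukocyte markers (9 genes) lay at 5.75 to 6.54 and neuron and glia markers (8) at 5.20 to 6.16 over all arrays, markers of fibroblasts, muscle and endothelium (9) at 5.26 to 5.91, and those of red blood cells (2) at 6.32 to 6.89. The outlying array set the upper end of each of these ranges. The MR820 array of the same population had 6.17, 5.28, 5.26 and 6.40 in this order. Between Mex3a-high and Mex3a-negative Lgr5-low cells 9 of 12 enteroendocrine, 4 of 5 Paneth cell, 2 of 9 leukocyte (Lyz2 and Kit) and 1 of 8 neuron and glia markers (Snap25) rose by limma, and none of the goblet cell, enterocyte, stem cell, fibroblast or red blood cell markers passed. The part of these cells in the levels of the 3 genes was not tested.

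As a description, the 3 genes had Pearson correlations over the 12 arrays of 0.994 between Dclk1 and Sh2d6, 0.995 between Dclk1 and Avil and 0.987 between Sh2d6 and Avil. Within the 6 arrays of 1 Lgr5 gate they were 0.989 to 0.997. The genes were selected on the same steps over these arrays, which fixes high values, and the arrays share populations and replicates. Among 1387 other genes with a range of at least 2 units over the arrays, the 12 most like the mean of the 3 standardised genes were Trpm5 (0.990), Alox5ap (0.987), Tuba1a (0.984), Reep5 (0.983), Vwa5b2 (0.977), Fut2 (0.974), Alox5 (0.969), Spib (0.964), Sst (0.961), Tph1 (0.961), Limd2 (0.958) and Elapor1 (0.957). Of them 4 are in the tuft lists. Sst, the hormone somatostatin, and Tph1, the first enzyme of serotonin synthesis, are products of enteroendocrine cells. The probe sets of Tuba1a, an alpha tubulin, and Reep5 carry the suffix that Affymetrix gives to probes shared with other sequences, so their gene is uncertain. Without the outlying array 6 of the 12 remained among the first 12, with Vwa5b2 first at 0.996, and over the 6 population means 9 did. Taken singly, Dclk1 was most like Alox5ap (0.988), Sh2d6 most like Trpm5 (0.983) and Avil most like Trpm5 (0.994).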

How the data were processed

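RNA of 6 cell populations from 2 biological replicates was measured on 12 arrays. Per the submitters' processing notes the authors made the deposited log2 values, 1 per probe set, with RMA, and no label states its settings. Every column was matched to its sample by name, which left 0 columns over. Of 45141 probe sets, 28898 have a single gene in GEO's platform annotation. The number of arrays limits precision.

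Each probe set was fitted with limma 3.58.1 (R 4.3.3) as 6 population means with no block (eBayes, mean-variance trend) and adjusted over 28898 probe sets by Benjamini-Hochberg. The call was an adjusted p under 0.05. The fit was tested on simulated data.

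The labels give the same 2 biological replicates for every population, so the numbers pair the samples. Replicate differences correlated over 0.1 in 14 of 15 pairs of populations (-0.129 to 0.549). In the 10 pairs without the population of the outlying array they correlated at 0.362 to 0.549. The main fit leaves this pairing out, and a fit with the replicate as a block is given among the alternatives.

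The 3 genes and all lists were chosen with earlier results of these data known. Named were all probe sets of the 3 genes, the measured genes among the first 5 of each list, members of counts of 5 or fewer, and the 12 genes most alike by correlation. Alternatives were a replicate or strip block, quantile normalization, median centring, 1 probe set per gene, a filter on dim probe sets, no trend, and leaving out each array. Promoter windows come from RefSeq (GRCm38.p6).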

Additional observations from a re-analysis of the deposited data

Results flagged for a closer look

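The change with Mex3a differed between the Lgr5 gates in 11 tests on probe sets of the 3 genes (limma, Lgr5-high minus Lgr5-low). Over all probe sets 124 (0.429%) passed from Mex3a-negative to Mex3a-high and 24 (0.0831%) from Mex3a-low to Mex3a-high. Sh2d6 passed in neither (limma adjusted p = 0.192 and 0.891). The Dclk1 probe sets are not independent, and the genes were selected on the changes subtracted here. As given above, the calls of the lead Dclk1 probe set and of Avil did not hold in every fit lacking 1 array. From Mex3a-negative to Mex3a-high the difference was -2.83 for Avil. For the 8 Dclk1 probe sets it was -3.29 (1451917_PM_a_at), -3.97 (1423125_PM_at), -4.63 (1436659_PM_at), -4.60 (1450863_PM_a_at), -3.13 (1424271_PM_at), -3.88 (1435940_PM_at), -3.90 (1451289_PM_at) and -2.31 (1424270_PM_at). From Mex3a-low to Mex3a-high it was -3.00 for 1450863_PM_a_at and -3.06 for 1451289_PM_at, while the lead Dclk1 probe set had -0.21. Every one was lower in the Lgr5-high gate.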

How the results depend on the processing

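Counts of called probe sets moved with the processing more than the differences of the 3 genes did. Between the Lgr5 gates of Mex3a-high cells the count of 366 was 222 with the strip as a block, 234 with 1 probe set per gene and 153 above the median level. In Mex3a-low cells the count of 4 was 1 with the strip block, 8 with 1 probe set per gene, 2 above the median level and 2 without the trend. In Mex3a-negative cells the count of 0 was 2 after quantile normalization. For the difference between the Lgr5 gates the count of 124 (Mex3a-high against -negative) was 224 with the strip block, 68 with 1 probe set per gene and 31 above the median level. The count of 24 (Mex3a-high against -low) was 12 with the replicate block, 13 with 1 probe set per gene, 0 above the median level and 3 without the trend. The count of 0 (Mex3a-low against -negative) was 1 with the strip block. Between Mex3a-high and Mex3a-negative cells 4 instead of 0 were called with the replicate block in Lgr5-high cells, and in Lgr5-low cells 183 above the median level and 837 on the Lgr5-low arrays alone, instead of 440. The replicate block changed no call of Dclk1, Sh2d6 or Avil (lead probe sets) between the Lgr5 gates.

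Leaving out 1 array at a time gave 161 to 17030 called probe sets between the Lgr5 gates of Mex3a-high cells, 0 to 38 in Mex3a-low and 0 to 15 in Mex3a-negative cells. For the difference between the gates it gave 34 to 12590, 0 to 12498 and 0 to 3 in the order above, and between Mex3a-high and -negative cells 0 to 16599 (Lgr5-high) and 252 to 1491 (Lgr5-low). The values of 17030, 12590, 12498 and 16599 came without the MR820 array of Mex3a-high Lgr5-high cells, after which the outlying array is alone in its population and assumed to vary like the others. Without the outlying array itself the counts were 607, 38, 15, 246, 80, 2, 3 and 1487, in the same order. The lowest count between the Lgr5 gates of Mex3a-high cells, 161, came without the Mex3a-high Lgr5-low array of MR793, and the 34 without the Mex3a-negative Lgr5-high array of MR820.

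Among the 3 genes the Mex3a-low difference of Dclk1 was -3.31 with the strip block and no longer called (adjusted p = 0.437). That of Sh2d6 was -3.52 with the strip block, -3.44 after quantile normalization, -3.47 above the median level and -3.47 without the trend, no longer called in any. That of Avil was called with 1 probe set per gene (-2.22, adjusted p = 0.0467). Quantile normalization ended the call for the difference between the gates of Avil (-2.65, adjusted p = 0.0676), and the strip block made that of Sh2d6 pass (-2.79). With the strip block the Mex3a-negative difference turned to 0.051 for Dclk1 and to 0.22 for Avil. Leaving out 1 array gave -4.01 to -2.90 for Dclk1, -4.11 to -2.83 for Sh2d6 and -2.67 to -1.78 for Avil in Mex3a-low cells, and -3.33 to -2.66 for Sh2d6 in Mex3a-high cells. For the difference between the gates from Mex3a-negative to Mex3a-high it gave -3.47 to -3.11, -2.75 to -2.08 and -2.97 to -2.70 (Dclk1, Sh2d6, Avil), from Mex3a-low to Mex3a-high -0.77 to 0.34 for Dclk1 and -0.17 to 1.11 for Sh2d6, and from Mex3a-negative to Mex3a-low -3.63 to -2.52 for Dclk1. The cause was not tested.

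Of the 44 tuft list genes 9 were called for the difference between the gates, 17 with the strip block and 21 without the outlying array. Arrays of 2 replicates limit all of these.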
